A study of Mus musculus with 24 samples.

Results

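Collagens are the main structural proteins of the extracellular matrix, and 43 genes of the count table encode them. They were taken as every protein-coding gene whose symbol in the GENCODE M1 annotation has the form Col, a type number, a and a chain number, out of 22337 protein-coding genes and 37991 genes in all. By the kind of assembly they form, 11 of the 43 were placed among the fibrillar collagens, 6 among the basement membrane collagens, 9 among the fibril-associated collagens with interrupted helices (FACIT) and 17 among other kinds. RNA of whole mammary gland or mammary tumor was sequenced from female mice, with 3 samples for each of 8 groups and 24 samples in all. The PyMT mice, on the FVB/N strain background, were heterozygous for a transgene. In it the mouse mammary tumor virus promoter drives the polyoma virus middle T antigen in mammary epithelium. The FVB mice were controls of the same background without that transgene. Both were sampled at week 6, 8, 10 and 12, when the PyMT glands held hyperplasia, adenoma or mammary intraepithelial neoplasia (MIN), early carcinoma and late carcinoma in that order. The total count per sample ran from 6969375 to 13516601 reads, of which collagen genes took a median of 1.47% in FVB samples (0.788% to 3.19%) and 0.781% in PyMT samples (0.633% to 1.11%).

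A collagen molecule is a helix of 3 chains, made of 1, 2 or 3 different gene products, so the supply of each chain matters for which molecule can form. Fibrillar collagens of types I and III build the thick fibers of connective tissue, and types V and XI set the diameter of those fibers from within. FACIT collagens of types IX, XII, XIV and XVI sit on the surface of fibrils. Type IV chains form the sheet of the basement membrane on which the mammary epithelium and the vessels rest, and type VI forms beaded filaments between that sheet and the fibers. In the mammary gland most fibrillar collagen is made by fibroblasts, while type IV is made by epithelial, endothelial and fat cells.

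Several chains of 1 molecule lie side by side in the genome. In the mm9 build used for these counts, Col4a6 (chrX:137599946-137908619, minus strand) and Col4a5 (chrX:137909928-138123778, plus strand) stood head to head with 1309 bases between their starts. Col4a1 (chr8:11198423-11312826, minus strand) and Col4a2 (plus strand, ending at 11449287) also stood head to head, and their annotated first exons shared 22 bases, printed here because reads there could come from either gene.
Shared first-exon bases of Col4a1 and Col4a2, chr8:11312805-11312826, mm9, plus strand: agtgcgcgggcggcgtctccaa

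Without strand, reads from these bases cannot be assigned to 1 partner, and the strand setting of the counting is not given in the sources used here. The overlap is short beside the 6818 exonic bases of Col4a1. The longest other exonic overlaps with a gene on the opposite strand were 234 bases for Col9a3 (Tcfl5), 212 for Col5a1 and 109 for Col1a1 (Gm17329), and Col10a1, Col15a1 and Col22a1 had 14 to 18.

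The sequences before the starts of 6 collagens are shown because the results below turn on these genes. Col4a5, Col4a6, Col9a1 and Col11a1 were higher in PyMT samples, and Col1a2 and Col3a1 were lower. They are the 200 bases before each transcription start in RefSeq's GRCm38.p6 annotation, read 5′ to 3′ on the gene's own strand. Capitals mark CCAAT (the CCAAT box), TATAAA (the TATA box) or GGGCGG (the GC box) on either strand, so a match on the opposite strand is shown as its reverse complement. Col9a1 has 2 starts in that annotation.
Col4a5, chrX:141475219-141475418, GRCm38.p6, plus strand: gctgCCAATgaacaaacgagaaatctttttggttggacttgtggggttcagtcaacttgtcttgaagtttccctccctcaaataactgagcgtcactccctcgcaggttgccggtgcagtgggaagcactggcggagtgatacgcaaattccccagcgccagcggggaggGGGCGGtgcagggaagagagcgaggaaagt
Col4a6, chrX:141474077-141474276, GRCm38.p6, minus strand: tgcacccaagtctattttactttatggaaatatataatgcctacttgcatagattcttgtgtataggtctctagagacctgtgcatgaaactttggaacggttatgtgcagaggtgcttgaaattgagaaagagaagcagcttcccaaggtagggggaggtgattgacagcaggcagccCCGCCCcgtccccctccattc
Col9a1, chr1:24177410-24177609, GRCm38.p6, plus strand: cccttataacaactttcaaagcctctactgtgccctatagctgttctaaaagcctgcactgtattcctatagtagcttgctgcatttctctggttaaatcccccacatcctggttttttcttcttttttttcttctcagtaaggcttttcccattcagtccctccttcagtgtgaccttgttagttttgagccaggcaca
Col9a1, chr1:24195003-24195202, GRCm38.p6, plus strand: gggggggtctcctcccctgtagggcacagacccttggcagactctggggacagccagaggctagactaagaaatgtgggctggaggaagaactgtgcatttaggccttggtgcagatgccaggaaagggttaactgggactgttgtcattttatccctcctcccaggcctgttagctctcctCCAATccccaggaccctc
Col11a1, chr3:114030340-114030539, GRCm38.p6, plus strand: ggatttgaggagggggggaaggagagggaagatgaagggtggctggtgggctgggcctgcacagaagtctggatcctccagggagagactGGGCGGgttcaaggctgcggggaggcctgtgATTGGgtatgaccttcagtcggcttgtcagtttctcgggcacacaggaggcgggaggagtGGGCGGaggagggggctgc
Col1a2, chr6:4505418-4505617, GRCm38.p6, plus strand: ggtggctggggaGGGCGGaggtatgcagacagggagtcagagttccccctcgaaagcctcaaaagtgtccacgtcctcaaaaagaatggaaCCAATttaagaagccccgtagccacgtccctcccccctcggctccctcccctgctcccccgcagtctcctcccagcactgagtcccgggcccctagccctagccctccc
Col3a1, chr1:45311338-45311537, GRCm38.p6, plus strand: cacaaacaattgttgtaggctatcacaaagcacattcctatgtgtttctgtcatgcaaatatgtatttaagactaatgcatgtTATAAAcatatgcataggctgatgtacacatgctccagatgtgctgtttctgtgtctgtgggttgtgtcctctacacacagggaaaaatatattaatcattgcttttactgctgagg

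The Col4a5 window held a CCAAT match 196 bases and a GGGCGG match 30 bases before the start, and the Col4a6 window held a GGGCGG match on the opposite strand 21 bases before the start. Of the Col9a1 windows, the one at the start further along the gene held CCAAT 18 bases before it, and the other held none of the 3 motifs. Col11a1 held GGGCGG at 110 and 19 bases and CCAAT, on the opposite strand, at 79 bases before the start. Col1a2 held GGGCGG at 188 and CCAAT at 109 bases before its start, and Col3a1 held TATAAA at 117 bases. RefSeq promoter windows were found for 35 of the 43 collagens (38 windows), of which 10 held CCAAT, 4 held TATAAA and 22 held GGGCGG. Among 32851 windows of all genes, 29.3%, 9.96% and 31.0% held these motifs. A match is a description of letters and not of binding.

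Of the 43 collagens, 37 passed the filter for the test, which asked for a CPM (the count divided by the sample's total and scaled to a fixed depth) of 1 or more in 12 or more samples. A gene was called a differentially expressed gene (DEG) at a fold change above 2 and a Benjamini-Hochberg adjusted p under 0.05 in edgeR's quasi-likelihood test over all 14918 genes tested, and every adjusted p below is of that kind. Fewer cells of a type and less RNA per cell cannot be told apart in whole tissue.

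Most collagens that differed between PyMT and FVB mice were lower in PyMT, while a small set led by Col9a1 was higher. With the 4 weeks fitted together, 21 collagens were down-regulated and 8 were up-regulated, against 17.2% and 8.51% of all genes tested. The down-regulated set held 7 of the 11 fibrillar genes (10 tested), 2 of the 6 basement membrane genes (5 tested), 2 of the 9 FACIT genes (7 tested) and 10 of the 17 others (15 tested). The up-regulated set held 1, 1, 4 and 2 genes of these classes. The median log2 fold change was -1.46 over the collagens tested and -0.03 over all genes tested. By class it was -1.56 for fibrillar, -0.27 for basement membrane, 1.05 for FACIT and -1.57 for the other collagens.

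The same excess of lower collagens was seen at each week. At week 6, 15 collagens were down-regulated (6.46% of all genes tested) and 2 up-regulated (3.58%). At week 8 these were 12 (6.37%) and 2 (3.57%), and at week 10 they were 13 (9.09%) and 5 (4.83%). At week 12, 17 collagens were down-regulated (13.0%) and 8 up-regulated (7.75%). In all, 10 collagens were down-regulated at all 4 weeks: Col3a1, Col4a1, Col4a2, Col5a1, Col5a3, Col6a1, Col6a2, Col6a3, Col15a1 and Col18a1. Col9a1 was up-regulated at all 4 weeks and was the only collagen to be so. The share of all genes tested that were called at all 4 weeks is not given here. Alternative settings, such as other tests, scalings, filters or left-out libraries, removed some calls of these collagens. At week 8 the Col3a1 call was lost in 7 settings and kept in 8. Col6a2 lost it in 6 and Col18a1 in 5. Col5a3 and Col9a1 kept the week 8 call in all, and the remaining members of the 10 lost it in 1 to 4. At week 6 Col5a3 and Col4a1 each lost the call in 4 settings, and Col4a2, Col6a2 and Col15a1 in 1. Col6a2 lost the week 10 call in 1. At week 12 Col3a1 and Col6a3 each lost it in 3 and Col6a1 in 2. No collagen was called in both directions, and 10 tested collagens were not called at any week.

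The week 8 counts changed when single libraries were left out. Without PyMT replicate 1 of that week, 1 collagen was down-regulated, and without FVB replicate 2, FVB replicate 3 or PyMT replicate 2 there were 2, 5 and 5. At week 12, 10 were down-regulated without PyMT replicate 3. Fits with fewer libraries have less power for every gene, and the shares of all genes called in them are not given here. Whether collagens lost more calls than other genes was not tested. When the counts were scaled by library size only, the median log2 fold change of all genes moved up by 0.29 over all weeks. The split of all genes called then went from 1269 up and 2571 down to 2050 up and 2002 down, while the collagen split went from 8 up and 21 down to 9 up and 20 down. At week 8 the split of all genes called went from 533 up and 951 down to 830 up and 745 down. The collagen split at that week went from 2 up and 12 down to 3 up and 8 down.

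**Figure D1:**
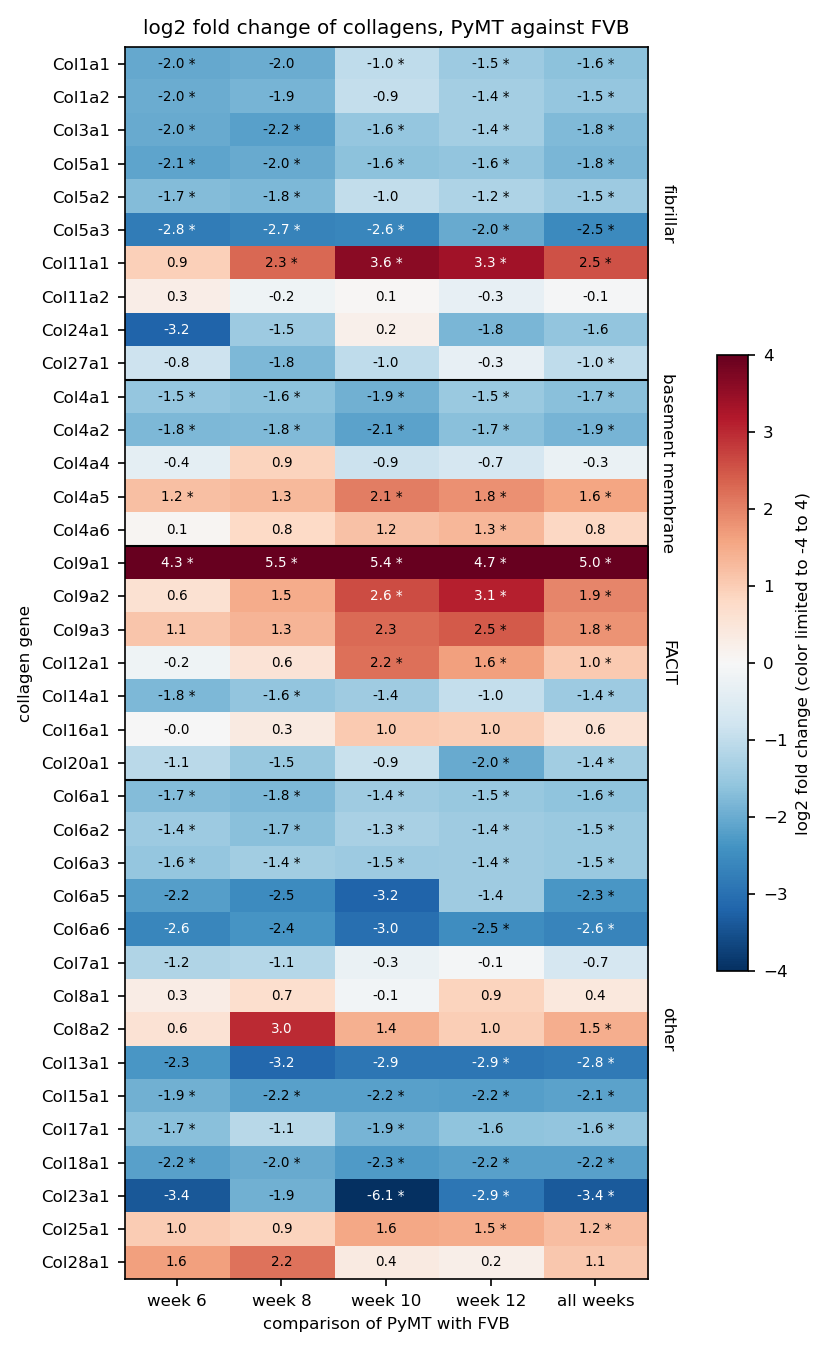
Log2 fold change of PyMT against FVB for the 37 collagens tested (rows, grouped by class) at week 6, 8, 10 and 12 and over all weeks (columns), with stars at genes called DEG. Blue cells (lower in PyMT) fill most of the fibrillar and other classes, and the highest values are in the Col9a1 row, 4.33 to 5.49.

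The chains of the thick fibers had the highest collagen levels in both genotypes and were lower in PyMT mice. Col3a1, the single chain of type III, had normalized counts of 22250, 44900 and 89837 (lowest, median and highest of 12 FVB samples) and of 9871, 13694 and 20842 in the 12 PyMT samples. No PyMT sample reached the lowest FVB sample. Its log2 fold change over all weeks was -1.78 (SE 0.20; adjusted p = 6.72e-08), a fold of 3.43. Col1a1, which with Col1a2 makes type I, ran from 7266 to 47682 in FVB samples (median 18183) and from 4511 to 11487 in PyMT samples (median 5697). Here the groups overlapped, since the lowest FVB value, that of week 8 replicate 1, lay within the PyMT range. Over all weeks Col1a1 fell by 1.64 on the log2 scale (SE 0.24; adjusted p = 4.94e-06) and Col1a2 by 1.54 (SE 0.21; adjusted p = 1.55e-06).

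The change of the type I difference from week 6 to week 12 was 0.58 on the log2 scale (SE 0.67; unadjusted p = 0.395) for Col1a1 and 0.61 (SE 0.57; unadjusted p = 0.298) for Col1a2 in edgeR's quasi-likelihood test, and neither passed. By week, Col1a1 had a log2 fold change of -2.04 (SE 0.36; adjusted p = 0.0105) at week 6, -1.02 (SE 0.20; adjusted p = 0.012) at week 10 and -1.45 (SE 0.32; adjusted p = 0.0113) at week 12. At week 8 it was -1.99 with an adjusted p of 0.0968, and without FVB replicate 1 of that week it was -2.45 with an adjusted p of 0.0144. In FVB samples the mean of Col1a1 was 29585 ± 13493 (SD, n = 3) at week 6 and 16179.8 ± 6714 at week 12, and in PyMT samples it was 7173 ± 1685 and 5722 ± 664. The week 10 call stood at a fold of 2.02 and did not pass with PyMT replicate 2, PyMT replicate 3 or FVB replicate 2 left out (log2 fold change -1.01 to -0.93). Counting every alternative setting, it was lost in 9 and kept in 6. At week 12, Col1a1 had an adjusted p of 0.0522, Col1a2 of 0.0502 and Col3a1 of 0.0708 without PyMT replicate 3.

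Type V, which starts the assembly of type I fibrils, was lower in all 3 of its chains. Col5a3 ran from 1067 to 3508 normalized counts in FVB samples (median 2151) and from 75.1 to 655 in PyMT samples (median 351). The lowest PyMT value came from week 6 replicate 2 and the groups did not overlap. Its log2 fold change of -2.53 (SE 0.25; adjusted p = 1.08e-08) was the largest decrease among the fibrillar collagens. Col5a1 fell by 1.84 (SE 0.18; adjusted p = 7.65e-09), from a median of 4862 in FVB to 1347 in PyMT samples, and Col5a2 by 1.46 (SE 0.18; adjusted p = 2.8e-07). These groups did not overlap either. Over all collagens, 11 had all 12 PyMT samples below all 12 FVB samples (7.22% of genes tested) and 2, Col4a5 and Col9a1, had all of them above (4.67%).

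Col11a1, the fibrillar chain that is paired with type V chains in some tissues and is best known from cartilage, differed in the opposite direction. In FVB samples its normalized counts were 188, 449 and 397 at week 6, 112, 331 and 383 at week 8, 201, 148 and 100.2 at week 10 and 182, 451 and 156 at week 12. In PyMT samples they were 637, 938 and 433 at week 6, 1151, 1877 and 992 at week 8, 1155, 2763 and 1478 at week 10 and 2168, 2697 and 2890 at week 12. The groups overlapped at week 6 and not at the later weeks. Its log2 fold change was 0.94 (SE 0.38; adjusted p = 0.152) at week 6, 2.28 (SE 0.45; adjusted p = 0.0198) at week 8, 3.61 (SE 0.40; adjusted p = 0.00109) at week 10 and 3.35 (SE 0.41; adjusted p = 0.000932) at week 12. The week 8 call did not pass without PyMT replicate 1 (adjusted p = 0.063) or FVB replicate 2 (adjusted p = 0.0654). The other type XI chain of its own gene, Col11a2, had a log2 fold change of -0.06 (adjusted p = 0.926) over all weeks at a median of 47.4 counts in FVB and 34.3 in PyMT samples.

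The remaining fibrillar genes were low. Col27a1, a fibrillar collagen of cartilage, fell by 1.00 over all weeks (adjusted p = 0.00245) at a fold of 2.01. Col24a1 had a log2 fold change of -1.57 (SE 0.78; adjusted p = 0.0951). Col2a1, the main cartilage collagen, was under the filter. It had at most 13.2 normalized counts in FVB samples, 9 of which were at 0, and up to 67.1 in PyMT samples, with a median of 27.5. At week 10 the 3 PyMT samples had 65.8, 55.5 and 37.5 and the FVB samples 0. Col2a1, Col24a1 and Col27a1 were singled out after their values were seen.

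**Figure D2:**
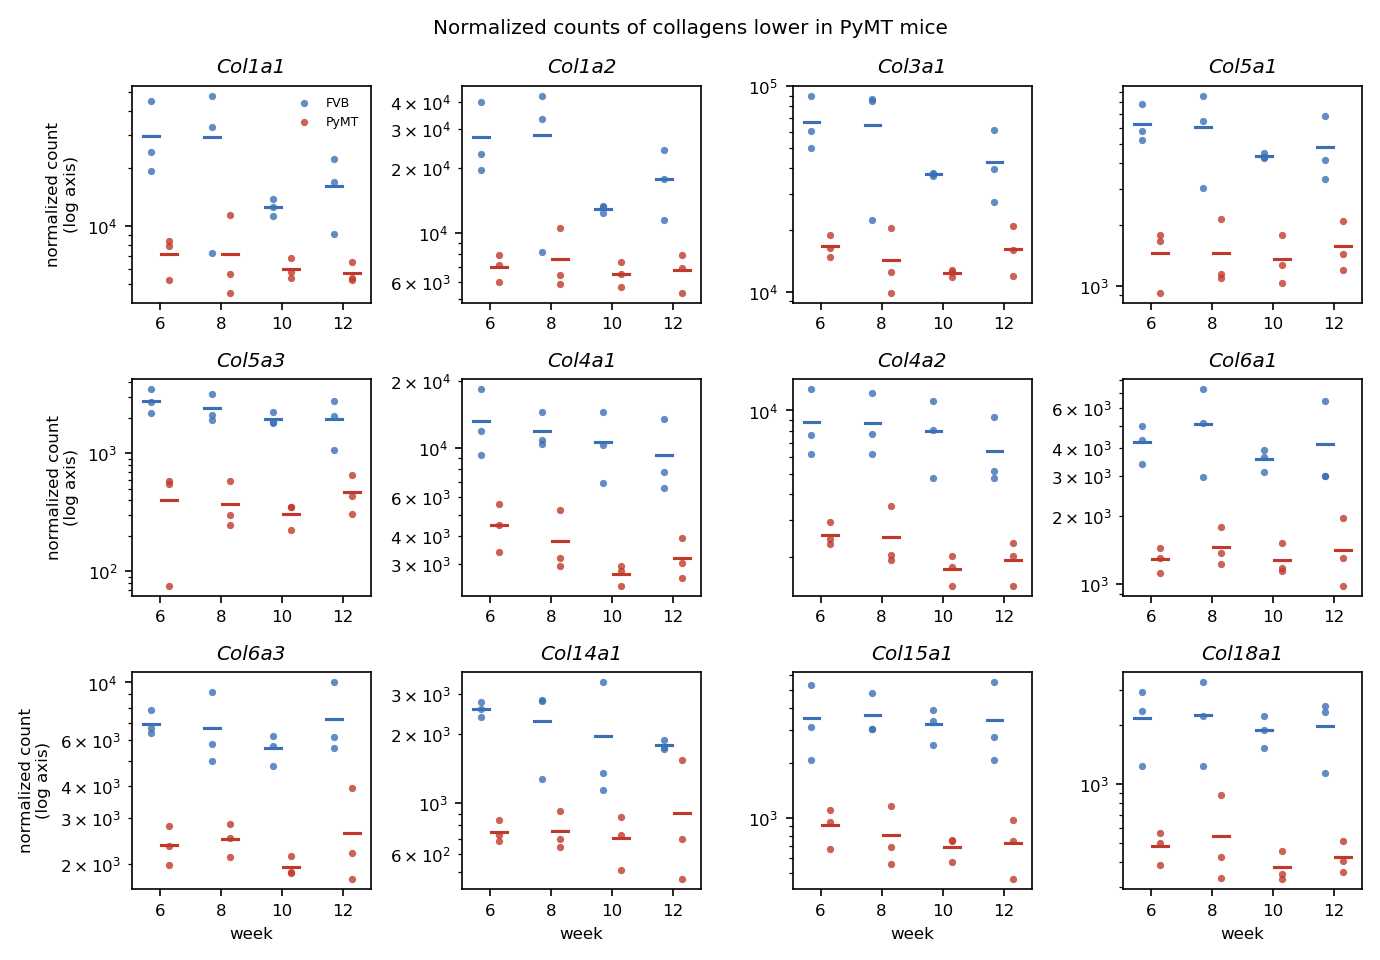
Normalized counts (log axis) by week for 12 collagens lower in PyMT mice, with FVB samples in blue, PyMT samples in red and a bar at each mean of 3. For Col3a1 the PyMT samples lie at 9871 to 20842 and the FVB samples at 22250 to 89837.

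The type IV chains moved in opposite directions. Col4a1 and Col4a2, which together make the type IV network found in almost every basement membrane, were lower in PyMT mice at all 4 weeks. Col4a1 ran from 6597 to 18354 normalized counts in FVB samples (median 10613) and from 2393 to 5594 in PyMT samples (median 3119). Col4a2 ran from 4772 to 12646 (median 7660) and from 1455 to 3521 (median 2039). Neither gene's groups overlapped, and over all weeks Col4a1 fell by 1.66 (SE 0.16; adjusted p = 4.82e-09) and Col4a2 by 1.85 (SE 0.17; adjusted p = 2.91e-09). Their weekly log2 fold changes stayed between -1.92 and -1.50 for Col4a1 and between -2.13 and -1.68 for Col4a2.

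Col4a5 and Col4a6, whose chains form another type IV network in some epithelial basement membranes such as that of skin, were higher in PyMT mice. Col4a5 had 531, 669 and 685 normalized counts in FVB samples at week 6, 289, 833 and 729 at week 8, 550, 540.1 and 117 at week 10 and 385, 786 and 314 at week 12. In PyMT samples it had 1509.9, 1586 and 1228 at week 6, 1612, 1719 and 1191 at week 8, 1487, 1728 and 1685 at week 10 and 1479, 1619.7 and 2014 at week 12. All PyMT samples lay above all FVB samples. The log2 fold change was 1.58 over all weeks (SE 0.21; adjusted p = 1.27e-06), and from week 6 to week 12 in turn 1.19 (SE 0.18; adjusted p = 0.00581), 1.30 (SE 0.37; adjusted p = 0.0643), 2.06 (SE 0.51; adjusted p = 0.0297) and 1.83 (SE 0.34; adjusted p = 0.00579). The lowest FVB value came from week 10 replicate 3. The week 10 call was lost when any 1 of the other 5 libraries of that week was left out, with adjusted p between 0.0527 and 0.0907.

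Col4a6 was called at week 12 (log2 fold change 1.34, SE 0.32; adjusted p = 0.0157). This call was lost without PyMT replicate 3 (1.17; adjusted p = 0.0645). At week 8 it was 0.81 (SE 0.20; adjusted p = 0.0402), under a fold of 2. The values of weeks 6 and 10 were 0.07 (SE 0.19; adjusted p = 0.853) and 1.17 (SE 0.57; adjusted p = 0.213). Over all weeks it was 0.84 (SE 0.22; adjusted p = 0.00219), a fold of 1.79, with medians of 547 counts in FVB and 974 in PyMT samples. The chains of the remaining pair, Col4a3 and Col4a4, known from kidney, were scarce, with at most 30.1 and 82.9 normalized counts in any sample. Col4a3 was not tested and Col4a4 had a log2 fold change of -0.27 (adjusted p = 0.802).

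All 5 type VI genes that could be tested were down-regulated over all weeks. Col6a1, Col6a2 and Col6a3 encode the usual chains of the beaded filament. Col6a1 ran from 2968 to 7272 normalized counts in FVB (median 3772) and from 978 to 1961 in PyMT samples (median 1301). Col6a2 ran from 2782 to 7153 (median 3785) and from 895 to 1907 (median 1504), and Col6a3 from 4764 to 10018 (median 6205) and from 1750.3 to 3936 (median 2179). None of these groups overlapped. Over all weeks the log2 fold changes were -1.62 (SE 0.15; adjusted p = 4.82e-09), -1.47 (SE 0.16; adjusted p = 3.45e-08) and -1.47 (SE 0.13; adjusted p = 1.61e-09). They lay within -1.80 and -1.31 at every week for the 3 chains.

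The other type VI chains, Col6a4, Col6a5 and Col6a6, lie in a row on chromosome 9 and were low, and were named after their values were seen. Col6a6 had a median of 138 normalized counts in FVB and 19.8 in PyMT samples and fell by 2.63 (SE 0.43; adjusted p = 1.7e-05). Col6a5 fell by 2.33 (SE 0.79; adjusted p = 0.0164), with medians of 54.4 and 11.3. In Col6a6 and Col6a5 the highest values, 519.6 and 188, came from FVB week 10 replicate 3. Col6a4 was not tested, and of 12 PyMT samples 11 were at 0 and 1 at 1.18, while FVB samples ran from 0 to 31.4.

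The multiplexins Col15a1 and Col18a1, basement membrane-linked collagens whose ends are cut to yield anti-angiogenic fragments such as endostatin from Col18a1, were down-regulated at all 4 weeks. Col18a1 ran from 1131 to 3288 normalized counts in FVB samples (median 2215) and from 328 to 875 in PyMT samples (median 416). Col15a1 ran from 2071 to 5498 (median 3107) and from 462 to 1155 (median 746). Neither gene's groups overlapped. Over all weeks Col18a1 fell by 2.16 (SE 0.19; adjusted p = 9.6e-10) and Col15a1 by 2.13 (SE 0.18; adjusted p = 1.04e-09), and the weekly values ran from -2.27 to -2.01 and from -2.20 to -1.93.

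FACIT collagens held 4 of the 8 genes up-regulated over all weeks. Col9a1, a chain of type IX that is known from the surface of cartilage fibrils, showed the largest difference of the 37 collagens tested. In FVB samples its normalized counts were 123, 119.6 and 154 at week 6, 27.8, 73.3 and 100.6 at week 8, 97.0, 57.1 and 95.5 at week 10 and 105, 214 and 132 at week 12. In PyMT samples they were 3037, 2693 and 2283 at week 6, 3447, 2514 and 3037 at week 8, 3734, 3721 and 3015 at week 10 and 4381, 3712 and 2955 at week 12. The lowest PyMT sample stood at 2283 and the highest FVB sample at 214. The log2 fold change over all weeks was 4.96 (SE 0.21; adjusted p = 4.1e-14), a fold of 31.1. By week it was 4.33 (SE 0.21; adjusted p = 0.000232), 5.49 (SE 0.47; adjusted p = 0.00223), 5.44 (SE 0.29; adjusted p = 9.33e-05) and 4.66 (SE 0.32; adjusted p = 0.000147).

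The other type IX chains were higher too, and by less. Col9a2 had FVB values of 44.2, 187 and 388 normalized counts (lowest, median and highest) and PyMT values of 284, 877 and 1192. The log2 fold change of Col9a2 was called at week 10 (2.61, SE 0.50; adjusted p = 0.0109) and week 12 (3.10, SE 0.36; adjusted p = 0.000707). It stood at 0.62 (SE 0.47; adjusted p = 0.441) at week 6 and 1.47 (SE 0.66; adjusted p = 0.191) at week 8. Col9a3 had FVB values of 20.3, 176 and 449 and PyMT values of 364, 661 and 970.1, and its log2 fold change was called at week 12 (2.47, SE 0.37; adjusted p = 0.00216) and over all weeks (1.78, SE 0.38; adjusted p = 0.000354). At weeks 6, 8 and 10 the Col9a3 groups did not overlap and the adjusted p was 0.214, 0.313 and 0.0795. The week 10 value passed without FVB replicate 2 (3.26; adjusted p = 0.0302) or FVB replicate 3 (1.78; adjusted p = 0.0139).

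Col12a1 and Col14a1 are FACIT collagens of type I fibrils, and they differed in opposite directions. Col12a1 ran from 373 to 2478 normalized counts in FVB (median 604) and from 821 to 2632 in PyMT samples (median 1697). It was called at week 10 (log2 fold change 2.20, SE 0.30; adjusted p = 0.00262) and week 12 (1.65, SE 0.31; adjusted p = 0.00599), and its values at weeks 6 and 8 were -0.16 and 0.56 (adjusted p = 0.799 and 0.528). Over all weeks it was 1.05 (adjusted p = 0.00365), a fold of 2.07, and without week 10 it was 0.67 (adjusted p = 0.083). The call of Col12a1 over all weeks was also lost without week 12. Counting every alternative setting, it was lost in 4 and kept in 10. Col14a1 ran from 1148 to 3374 in FVB samples (median 2141) and from 466 to 1541 in PyMT samples (median 713), and fell by 1.45 (SE 0.19; adjusted p = 1.03e-06). The only PyMT sample inside the FVB range of Col14a1 was week 12 replicate 1 at 1541. At week 12 the log2 fold change of Col14a1 was -0.95 (adjusted p = 0.0964), and without that library it was -1.56 (adjusted p = 0.00576).

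Col16a1, another FACIT, ran from 624 to 3097 normalized counts in FVB samples (median 1832) and from 1984 to 3571 in PyMT samples (median 2629). Its log2 fold change of 0.58 (SE 0.22; adjusted p = 0.0338) over all weeks was under a fold of 2. At week 6 it was -0.02 (adjusted p = 0.977) and turned to 0.17 when the counts were scaled by library size only. At week 12 it was 0.98 (adjusted p = 0.026), a fold of 1.98, and without FVB replicate 2 it was 1.30 (adjusted p = 0.00192). Col20a1, named after its values were seen, fell by 1.38 (SE 0.41; adjusted p = 0.00668), with medians of 80.1 and 31.7. Col19a1 and Col22a1 were under the filter, with at most 37.1 and 48.7 normalized counts in any sample, both in FVB week 6 replicate 1.

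**Figure D3:**
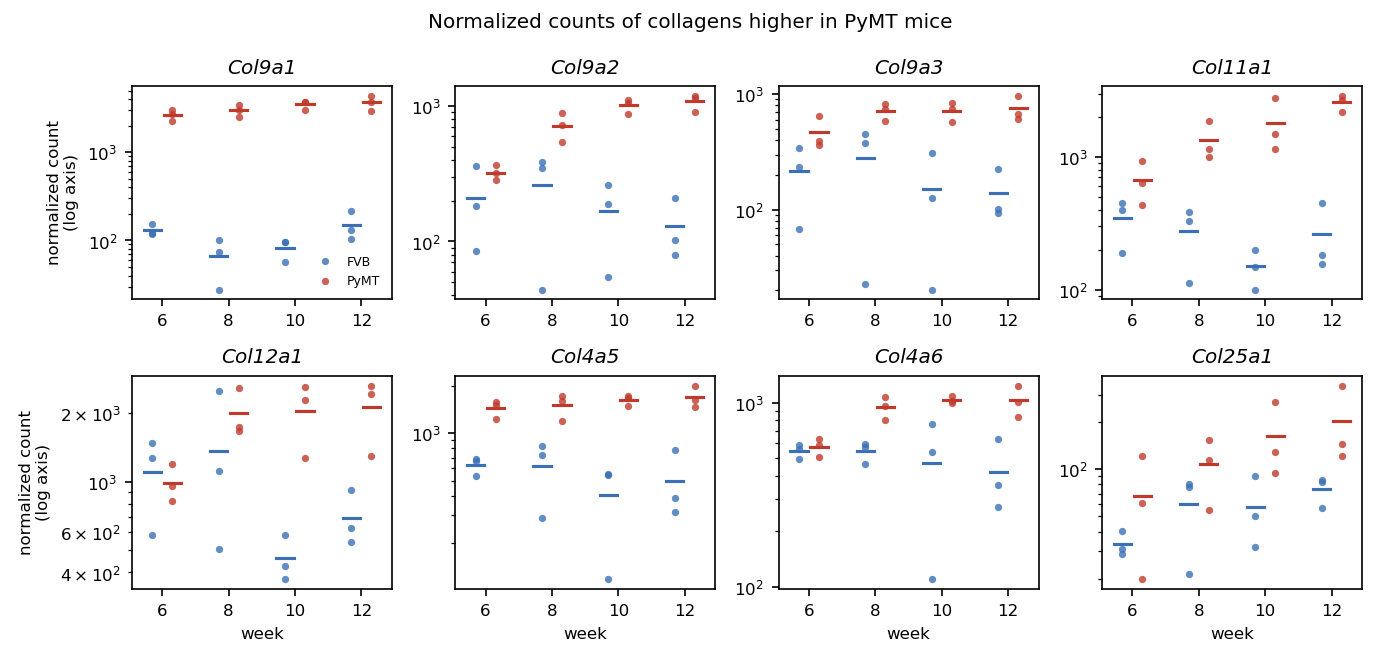
Normalized counts (log axis) by week for 8 collagens higher in PyMT mice, with FVB samples in blue, PyMT samples in red and a bar at each mean of 3. Col9a1 is apart from week 6 on (2283 in the lowest PyMT sample, 214 in the highest FVB sample), while Col11a1 and Col9a2 overlap at week 6 and not later.

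Among the 4 transmembrane collagens, 3 fell and 1 rose over all weeks. Col17a1, which anchors basal epithelial cells to the basement membrane at hemidesmosomes, had medians of 511 normalized counts in FVB and 133 in PyMT samples and fell by 1.57 (SE 0.25; adjusted p = 1.58e-05). Col13a1 had a log2 fold change of -2.82 (SE 0.65; adjusted p = 0.000819) and Col23a1 of -3.37 (SE 0.75; adjusted p = 0.000601), at FVB medians of 148 and 79.3 and PyMT medians of 14.3 and 10.1. Col25a1, a collagen first known from brain, had medians of 53.4 in FVB and 122 in PyMT samples and a log2 fold change of 1.23 (SE 0.31; adjusted p = 0.00182). It was called at 1 week, week 12 (1.49; adjusted p = 0.042), and there without PyMT replicate 3 it was 0.87 (adjusted p = 0.193). FVB replicates 1, 2 and 3 each left out gave adjusted p of 0.105, 0.0631 and 0.0862. Counting every alternative setting, the week 12 call of Col25a1 was lost in 7 and kept in 8. Col13a1, Col17a1 and Col23a1 were named after their values were seen.

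The network-forming type VIII is made of Col8a1 and Col8a2, known from vessel walls and the cornea. Col8a1 had a log2 fold change of 0.42 (SE 0.19; adjusted p = 0.0651). Col8a2 had 0, 31.4 and 64.1 normalized counts (lowest, median and highest) in FVB and 14.2, 98.5 and 167 in PyMT samples, and a log2 fold change of 1.45 (SE 0.59; adjusted p = 0.0428). This call was lost when any of week 8, 10 or 12 was left out (adjusted p = 0.101, 0.109 and 0.0971). Col10a1, the third member of this class and a marker of growth plate cartilage, was at 0 in 11 of 12 FVB samples and reached 21.9 in PyMT samples. Col7a1, which forms the anchoring fibrils under epithelia, had a log2 fold change of -0.68 (SE 0.29; adjusted p = 0.0533), and Col28a1 of 1.06 (SE 0.66; adjusted p = 0.185).

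Ranks of the collagens by level differed between the genotypes. For levels to be compared between genes, each normalized count was divided by the length of the gene's exons in kilobases. Summed over the 43 collagens, this level ran from 10683 to 33957 in FVB samples (median 17085) and from 6466 to 10686 in PyMT samples (median 7739). The lowest FVB sum, from week 8 replicate 1, lay just under the highest PyMT sum, from week 8 replicate 3. By mean level per kilobase Col3a1 ranked 1 and Col1a1 ranked 2 in both genotypes. Col9a1 ranked 28 of 43 in FVB samples (21.1 per kilobase) and 3 in PyMT samples (627 per kilobase). The PyMT levels of Col9a1 (446 to 855) overlapped those of Col1a2 (439 to 866), which ranked 4. Col16a1 went from rank 15 to 6, Col9a2 from 20 to 9 and Col4a5 from 18 to 10, while Col5a3 went from 12 to 24 and Col18a1 from 14 to 23. Per kilobase of the longest coding transcript instead, Col1a2 ranked 2 and Col1a1 ranked 3 in both genotypes, and Col9a1 ranked 27 in FVB and 4 in PyMT samples.

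As a share of the summed collagen level per kilobase, types I and III together took a median of 55.0% in FVB samples (41.5% to 65.5%) and 40.7% in PyMT samples (36.3% to 48.0%). Type IX took 0.680% (0.239% to 1.06%) and 14.4% (7.53% to 16.5%). In PyMT samples the type IX share had a mean of 9.62% ± 1.95 (SD, n = 3) in the week 6 group and 12.8% ± 2.93 in the week 8 group. In the week 10 and week 12 groups it was 16.1% ± 0.361 and 15.2% ± 1.43. Type XI went from a median of 0.154% in FVB to 2.06% in PyMT samples and type XVI from 1.41% to 5.04%. The share of type IV overlapped between the genotypes, with medians of 14.1% and 15.0%. The shares of types IX, XI, XII and XVI did not overlap between the genotypes. Type XII took 0.164% to 0.479% in FVB and 0.735% to 2.45% in PyMT samples. The normalized counts of Col16a1, the chain of type XVI, did overlap, and its share also depends on the lower collagen sum in PyMT samples. A share of 1 type falls when that of another rises, so shares are not separate measurements. Shares also depend on the length used. Col1a2 has 12145 bases of exons and 5347 in its longest coding transcript, and shares with the latter lengths are not given here.

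**Figure D4:**
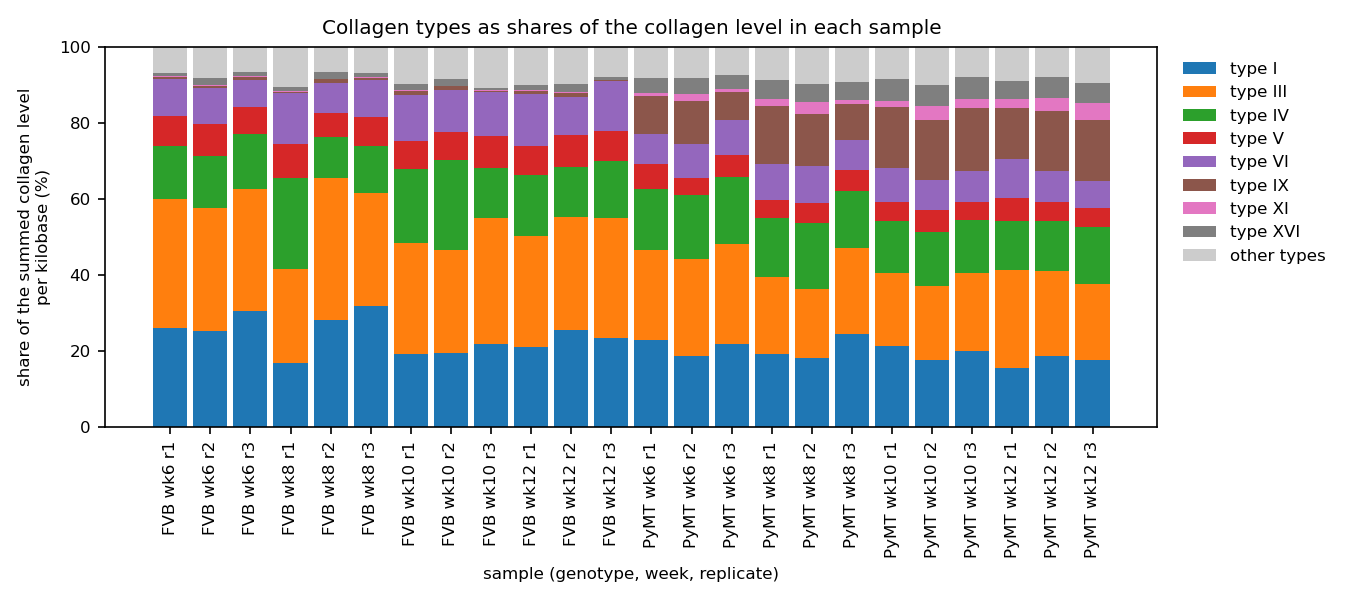
Stacked bars of each collagen type as a percentage of the summed collagen level per kilobase, 1 bar per sample (12 FVB, 12 PyMT). The type IX part is 0.239% to 1.06% of each FVB bar and 7.53% to 16.5% of each PyMT bar, and the parts of types I and III are smaller in most PyMT bars.

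Ratios of 2 chains within a sample do not depend on how the samples were scaled. Of 14 pairs picked for this report, 9 had ranges that overlapped between the genotypes and 5 did not. The share of gene pairs in general without overlap is not given here. The log2 ratio of Col1a1 to Col1a2 per kilobase had medians of 0.87 in FVB and 0.78 in PyMT samples, that of Col4a1 to Col4a2 of 0.49 and 0.64, and that of Col6a1 to Col6a2 of 0.94 and 0.77. The ranges overlapped in each. The 5 ratios without overlap were as follows. The log2 ratio of Col4a5 to Col4a1 had medians of -4.25 and -0.93, that of Col4a6 to Col4a2 of -4.04 and -1.46 and that of Col11a1 to Col5a1 of -4.63 and -0.15. Those of Col12a1 to Col14a1 were -2.45 and 0.22, and those of Col9a1 to Col9a2, chains of the same type IX molecule, -1.37 and 1.36. Apart from Col9a1 to Col9a2, these ratios set a gene higher in PyMT samples over a lower one. They therefore restate the differences given above and are not separate results. The choice of transcript length shifts a ratio by the same amount in every sample, by -1.04 for Col1a1 to Col1a2 with the longest coding transcripts.

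**Figure D5:**
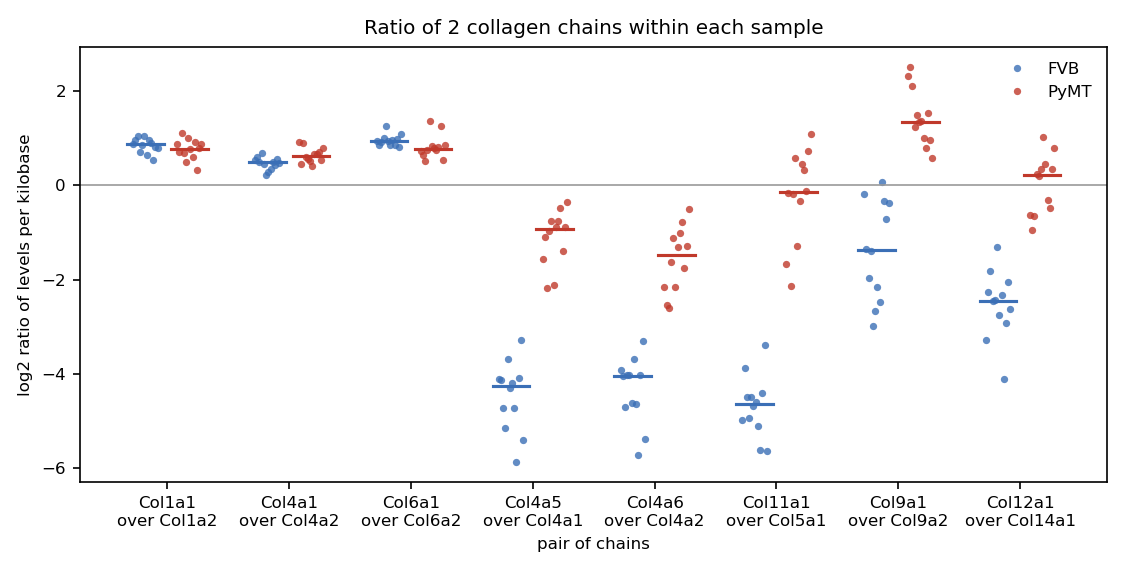
Log2 ratio of the level per kilobase of 2 collagen chains in each of 24 samples (points, FVB blue and PyMT red, with a bar at the median). The 3 pairs on the left overlap between genotypes, while the 5 pairs on the right do not, such as Col4a5 over Col4a1 with medians of -4.25 and -0.93. Every pair without overlap is shown, and only some of those with overlap.

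Whether collagens changed within a genotype from week 6 to week 12 was tested directly. In edgeR's quasi-likelihood test no gene was called in PyMT samples, in FVB samples, or in the change of the difference between the genotypes (0.0% of genes tested in each). At an unadjusted p under 0.05 there were 5 collagens among 1004 genes in PyMT samples, 0 collagens among 625 in FVB samples and 4 collagens among 691 in the change of the difference. In PyMT samples the lowest of these was Col11a1, with a log2 fold change of 1.97 from week 6 to week 12 (unadjusted p = 0.000382; adjusted p = 0.168), then Col9a2 with 1.76 (unadjusted p = 0.00717; adjusted p = 0.459). The change of the difference was 2.39 for Col11a1 (adjusted p = 0.812), which missed the threshold. DESeq2 called 97, 19 and 11 genes in the 3 tests, of which 1, 0 and 0 were collagens. The limma voom test called 38, 58 and 10 genes, of which 2, 0 and 1 were collagens.

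The enzymes that make and assemble collagen were followed through lists drawn up for this report. Of 16 genes tested that modify or fold procollagen in the endoplasmic reticulum, 8 were down-regulated over all weeks and 2 up-regulated (median log2 fold change -1.01), beside 17.2% down-regulated and 8.51% up-regulated among all genes tested. Serpinh1, the collagen chaperone, fell by 1.36 (adjusted p = 1.2e-10), P4ha1, a catalytic subunit of prolyl hydroxylase, by 1.29 (adjusted p = 1.44e-08) and Glt25d2, a collagen galactosyltransferase, by 2.67 (adjusted p = 7.25e-05). P4hb, the shared subunit of prolyl hydroxylase that also serves as a general disulfide isomerase, rose by 1.16 (adjusted p = 3.22e-10), and Leprel1, a prolyl 3-hydroxylase, by 1.23 (adjusted p = 1.86e-06). Of 7 genes tested on the list for procollagen processing, 6 fell, among them Bmp1 by 1.41, Adamts2 by 1.83 and Pcolce by 1.86. Adamts3 had a log2 fold change of -0.02 (adjusted p = 0.951).

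Of the 5 crosslinking oxidases, Loxl1 (-1.92; adjusted p = 5.21e-11) and Loxl2 (-1.78; adjusted p = 1.52e-07) were down-regulated, and Lox had a log2 fold change of -0.59 (adjusted p = 0.0131), under a fold of 2. Of 9 receptors and uptake genes tested, 4 fell: the fibrillar collagen receptor Ddr2 by 2.66, the integrin chains Itga11 by 2.11 and Itga1 by 1.71, and the uptake receptor Mrc2 by 1.30. Ddr1, the epithelial relative of Ddr2, had a log2 fold change of 0.59 (adjusted p = 0.000128), under a fold of 2. All 4 collagen-degrading proteases tested were down-regulated, Mmp2 by 2.24, Mmp9 by 3.83, Mmp14 by 1.41 and Ctsk by 1.18.

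Markers of several cell types moved with these groups of genes. Of 10 fibroblast markers 9 were down-regulated over all weeks, where 17.2% of all genes tested were down-regulated and 8.51% up-regulated, and their summed level per kilobase ran from 6139 to 13887 in FVB and from 883 to 2102 in PyMT samples. All 8 adipocyte markers (50006 to 136494 in FVB, 975 to 17543 in PyMT) and all 8 endothelial markers (1141 to 2164 and 188 to 474) were down-regulated. Of 8 luminal epithelial markers 7 were up-regulated (1954 to 9932 and 10211 to 20112). Of 8 basal and myoepithelial markers 5 were down-regulated (1487 to 5385 and 466 to 2692), with Krt5, Krt14 and Trp63 not called. None of these marker lists held a gene at 0 in all samples. Of 7 macrophage markers 1 was down-regulated (993 to 2468 and 771 to 1797). The part of these shifts in the collagen differences was not tested.

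Skeletal muscle RNA varied between libraries, with a summed level of 10 markers from 50.8 to 252536 in FVB and from 0 to 13558 in PyMT samples. All 10 were down-regulated. Without the 6 libraries above 10000, 4 of them FVB and a choice made after seeing the data, 20 collagens were down-regulated and 6 up-regulated over all weeks, and Col8a2 (1.37; adjusted p = 0.157) and Col12a1 (0.97, under a fold of 2) lost their calls. The share of all genes called in that fit is not given here. Cartilage markers, relevant to types II, IX and XI, were near 0: of 6 genes Comp alone could be tested (log2 fold change 2.00; adjusted p = 0.0973), and Acan and Matn1 were at 0 in every sample. The summed level was 0 to 66.3 in FVB and 0 to 74.8 in PyMT samples. Of 6 keratinocyte markers 1 was tested and fell (13.8 to 862 and 0 to 1119.6).

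Some libraries stood apart. FVB week 10 replicate 3 had 4.40% of 3799 moderately expressed genes at 0, the highest muscle sum and the lowest Col4a5 and Col4a6 values. PyMT week 8 replicate 2 had 2.87% at 0. Without these 2 libraries, 21 collagens were down-regulated and 7 up-regulated over all weeks, and the share of all genes called is not given here. FVB week 8 replicate 1 had 1.92% at 0, the highest adipocyte sum and the lowest FVB values of Col1a1, Col3a1 and Col9a1.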

How the data were processed

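Total RNA of snap-frozen gland or tumor was depleted of ribosomal RNA, made into directional (dUTP) libraries and sequenced on a HiSeq2500. Per the study's methods and the submitters' processing notes, reads were aligned to mm9 with GSNAP and counted per gene with HTSeq. The deposited values are raw read counts for 37991 genes in 24 samples, and the counting's strand setting and annotation release are not given in the sources used here.

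The 14918 genes that reached a CPM of 1 in 12 or more samples were tested with edgeR 4.0.16 (R 4.3.3), TMM scaling and the quasi-likelihood test, week by week on 6 samples, and over all weeks and across time on all 24. Benjamini-Hochberg adjustment ran over all genes tested. DEG calls needed an adjusted p under 0.05 and a fold above 2. Normalized counts used DESeq2 1.42.0 size factors, and levels per kilobase the union of GENCODE M1 exons. A standard error is the log2 fold change over the square root of the test's F value, and the fit was tested on simulated data. DESeq2, limma voom (limma 3.58.1), other scalings, other filters and left-out libraries were alternatives.

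The members and lists were chosen with earlier results of these data known. Values were given for the 3 collagens of each class with the highest level per kilobase, each up-regulated collagen and the 5 with the largest mean decrease among those called at the most weeks, and other members were named after their values were seen. P-values of the single-week fits measure the spread between 3 samples a group. In the fit over all weeks the spread also takes in changes of the genotype difference between weeks. The tests across time share 1 estimate of the spread over the 8 groups. Depth was similar between genotypes (7026040 to 13516601 in PyMT, 6969375 to 11928398 in FVB). The result of 1 further marker list is not reported here.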

Additional observations from a re-analysis of the deposited data

How the results depend on the processing

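Single values were recomputed only for the collagens that met the rule for giving values, in the comparisons of PyMT with FVB. Direction was kept in all but 13 of them, and these 13 concern Col16a1, Col8a2 and Col12a1 at weeks where they were not called. Other members and the tests across time were not part of this check. For Col16a1 at week 6 (-0.02) the log2 fold change was 0.17 with scaling by library size only, 0.012 with no filter on low counts, 0.014 with a weaker filter and 0.084 with the replicate block, and ran from -0.32 to 0.27 with 1 library left out. For Col16a1 at week 8 it ran from -0.049 to 0.68 with 1 library left out. For Col8a2 at week 6 it was -0.033 with the replicate block and ran from -0.89 to 1.05 with 1 library left out. For Col12a1 at week 6 it was 0.034 with scaling by library size only and ran from -0.45 to 0.13 with 1 library left out.

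Counts of collagens moved by over 1.5 times in few settings, and the cause was not tested. At week 6, 1 was up-regulated in a fit of all 24 samples. At week 8, 4 were up-regulated with no filter and 5 with limma voom, which called 19 down-regulated. Leaving out 1 library gave 1 to 3 up-regulated and 1 to 17 down-regulated at week 8, and 10 to 18 down-regulated at week 12. The shares of all genes called in these fits of single weeks are not given here. From week 6 to week 12 in PyMT samples, DESeq2 called 1 collagen among 97 genes and edgeR's likelihood ratio test 1 among 82. There limma voom called 2 among 38, and 1 among 10 in the change of the difference. With the longest coding transcript as length, the mean level per kilobase was 6082 for Col3a1, 2673 for Col1a2, 512 for Col6a3, 599 for Col6a2, 432 for Col16a1 and 433 for Col9a1.

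The groups share replicate numbers, and whether these pair the samples is not known. Of 12 pairs of same-numbered samples, 4 had a correlation of deviations above 0.1, the highest 0.177. In 6 of the 12 the correlation was higher than with other numbers, among them each pair of week 10. With the replicate block, 2 collagens were up and 16 down at week 6, 2 and 11 at week 8, 5 and 13 at week 10, 8 and 19 at week 12 and 8 and 20 over all weeks. The shares of all genes called with the replicate block are not given here. Col2a1, Col10a1 and Col6a4 were at 0 in most samples of 1 genotype, so their folds are poorly bounded. A weaker filter asked for a CPM of 1 in 3 samples. In that fit their log2 fold changes over all weeks were 5.01 (SE 1.19), 4.34 (SE 1.60) and -5.53 (SE 1.06), and all were called. They reached that filter through the genotype where they were higher, so these calls are not separate support. Col4a3, Col19a1 and Col22a1 were not called, and the share of all genes called in that fit is not given here.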
